A study of Mus musculus with 16 samples.

Results

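The 1037 H3K9me3 peaks with the highest ChIP signal relative to input were described here, out of 212313 H3K9me3 MACS peaks from small intestinal crypts. A peak was chosen on its measured values: the mean of the 6 H3K9me3 ChIP libraries minus the mean of the 2 inputs, on the log2 scale and less the median of this difference over all peaks (0.166), had to be at least 1, and both inputs had to hold at least 10 reads. This difference is called enrichment below, and a value of 1 is a 2-fold higher ChIP over input than at the median peak. Crypts came from male C57BL/6 mice, either wild type (WT) or with a Villin-Cre (Vil-Cre) mediated deletion of the floxed exons of Smarcad1 (KO). Smarcad1 is a chromatin remodeling ATPase, and the Villin promoter drives Cre in the intestinal epithelium, so that other cells of a crypt isolate keep the gene. The preparations were whole crypt isolates, and ages and any pooling of animals were not given in the sources used here. Each genotype had 3 H3K9me3 ChIP libraries and 1 input library, which holds sonicated chromatin that met no antibody, and the same numbers for H3K9me2. The question behind the comparison was how loss of Smarcad1 affects the level of H3K9me3, here at the peaks where the mark stood out most.

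Trimethylation of histone H3 at lysine 9 is a mark of heterochromatin that is read by HP1 proteins and laid down by methyltransferases such as SETDB1 and the SUV39H enzymes. In mammals SETDB1 is brought to DNA by KRAB zinc finger proteins through their co-repressor TRIM28, and much of the mark lies on repeated elements. The 3' exons of KRAB zinc finger genes, which code for arrays of zinc fingers and sit in tandem gene clusters, carry the mark in many cell types.

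The central 300 bases of each member were read from the GRCm38 genome (RefSeq, GRCm38.p6, forward strand), and 475 of 1037 members (45.8%) shared at least 50 different 15-base words, on either strand, with the centre of another member. Repeated sequence of this kind is shown by 2 examples, each the member with the most such partners in its group, with capitals on the bases covered by words that at least 50% of the group held. The 18 members like the first lay on 13 chromosomes, and the 16 like the second on 12. The third sequence is from the most enriched member at a named gene, D10Wsu102e, with its 17 CpG dinucleotides in capitals. This member belongs to the same group as the second sequence and is the most enriched of that group. The fourth lies in Zfp808 and stands for the zinc finger genes, with capitals on its 3 copies of GAGAAACCC, part of the coding sequence of the linker that joins neighbouring fingers. The fifth, in Zfp932, has 9 partners among the members, 7 members of this group being on chromosome 12, and its capitals again mark words that at least 50% of them shared.
chr1:17956651-17956950: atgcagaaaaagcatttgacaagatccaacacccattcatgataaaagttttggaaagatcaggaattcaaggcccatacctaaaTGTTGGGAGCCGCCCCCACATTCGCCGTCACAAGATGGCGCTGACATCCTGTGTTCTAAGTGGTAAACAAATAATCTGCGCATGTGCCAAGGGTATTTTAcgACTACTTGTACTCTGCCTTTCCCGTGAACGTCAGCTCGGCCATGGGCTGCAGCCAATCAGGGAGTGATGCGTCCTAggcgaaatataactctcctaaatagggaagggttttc
chr6:23893651-23893950: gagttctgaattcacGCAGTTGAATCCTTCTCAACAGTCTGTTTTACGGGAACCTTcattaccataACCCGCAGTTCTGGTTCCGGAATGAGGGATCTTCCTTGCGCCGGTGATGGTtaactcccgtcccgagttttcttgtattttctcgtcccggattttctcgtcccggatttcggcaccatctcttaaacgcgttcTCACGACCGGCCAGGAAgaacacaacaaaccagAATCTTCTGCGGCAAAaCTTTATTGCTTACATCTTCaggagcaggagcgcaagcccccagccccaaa
D10Wsu102e, chr10:83472451-83472750: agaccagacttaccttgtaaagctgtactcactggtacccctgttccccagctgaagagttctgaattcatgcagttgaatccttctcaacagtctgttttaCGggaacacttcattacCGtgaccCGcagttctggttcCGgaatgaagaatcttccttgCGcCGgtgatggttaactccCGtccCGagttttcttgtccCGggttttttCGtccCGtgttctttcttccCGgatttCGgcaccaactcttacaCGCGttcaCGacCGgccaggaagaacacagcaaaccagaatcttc
Zfp808, chr13:62171626-62171925: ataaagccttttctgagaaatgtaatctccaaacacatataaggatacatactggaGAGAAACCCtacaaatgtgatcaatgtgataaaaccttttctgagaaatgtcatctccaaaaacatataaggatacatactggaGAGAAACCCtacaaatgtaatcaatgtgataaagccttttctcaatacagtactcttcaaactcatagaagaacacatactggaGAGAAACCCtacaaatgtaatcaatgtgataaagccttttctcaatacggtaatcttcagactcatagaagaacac
Zfp932, chr5:110008801-110009100: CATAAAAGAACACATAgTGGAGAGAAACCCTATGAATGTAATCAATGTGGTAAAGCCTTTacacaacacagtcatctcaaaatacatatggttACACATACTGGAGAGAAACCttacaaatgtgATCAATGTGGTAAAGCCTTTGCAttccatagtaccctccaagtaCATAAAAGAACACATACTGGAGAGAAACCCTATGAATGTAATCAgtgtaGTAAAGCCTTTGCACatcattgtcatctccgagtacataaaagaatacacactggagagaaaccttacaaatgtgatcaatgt

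CpG-rich and repeat-masked sequence was more frequent at the members than over all peaks. The median ratio of observed to expected CpG in the central 300 bases was 0.27 at members and 0.13 over all peaks, and 160 members (15.4%) reached 0.6 compared with 1.63% of all peaks. GC content had a median of 44.7% at members and 40.3% over all peaks. The reference marked a median of 77.0% of the bases as repeat (soft-masked) at members and 33.7% over all peaks, and the whole window in 235 members (22.7%) compared with 10.9% of all peaks. No repeat annotation was used, so the classes of these repeats are not named. The hexamer TGCCGC, which the KRAB zinc finger protein ZFP57 binds when methylated, was present on either strand in 71 members (6.85%) and in 1.55% of all peaks. It holds a CpG itself, and among peaks with a CpG ratio of at least 0.3 the shares were 11.9% of 472 members and 6.13% of 31538 peaks. The linker motif GAGAAACCC, looked for after the sequences had been seen, was present on either strand in 36 members (3.47%) and 2276 of all peaks (1.07%). At least 2 copies were present in 18 members (1.74%) and 47 of all peaks (0.0221%). Only 5 of the 18 lay within 5 kb of an annotated zinc finger gene. A match of letters describes the sequence and does not show that a factor bound there.

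The repeated sequences were not confined to the members. In all, 394 peaks resembled the first printed sequence by the same measure, of which 4.57% were members, and the figures for the second were 113 peaks and 14.2%. For the Zfp932 sequence they were 24 peaks and 41.7%. Read pairs were filtered on mapping quality by the authors, yet near-identical copies can still exchange reads, and the level of any single copy is uncertain.

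**Figure D1:**
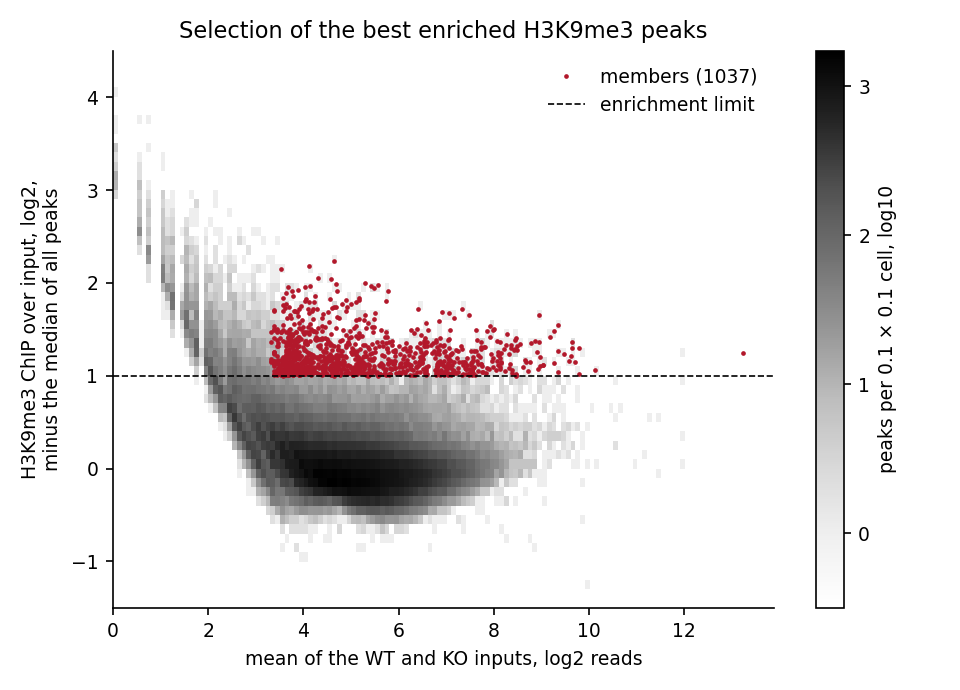
Enrichment (ChIP over input, log2, less the median of all peaks) against the mean log2 reads of the 2 inputs, with all 212313 peaks as grey cells and the 1037 members as red dots. The members sit above the dashed limit of 1 and to the right of the input minimum, and the grey cells above the limit at low input are peaks that the minimum left out.

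The enrichment of the members ran from 1.00 to 2.23 with a median of 1.16, and these values describe the choice and were not tested. Only 108 members reached 1.5 and 5 reached 2. Just inside the limit lay peaks at Gm26779 (1.00), 9030624G23Rik (1.00) and Zfp935 (1.00). Just outside lay chr7:14958451-14959800, chr12:18021901-18023550 and chrY:961951-964050, at 0.9997, 0.9997 and 0.9996. A further 4673 peaks passed the enrichment limit with fewer than 10 reads in an input. The members' inputs held a median of 28 reads in WT and 29 in KO, and 430 members had an input under 20 reads, so the enrichment of a single member carries a large counting error.

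Zinc finger genes, a small nuclear RNA gene and genes of unknown function were among the 12 most enriched members with a gene symbol other than Gm or Rik names, and none of these 12 passed the test between genotypes with all libraries. The highest member of all, chr3:94214551-94218450, had no gene within 5 kb, an enrichment of 2.23 and lay in a locus on chromosome 3 described below. D10Wsu102e followed at 2.18, with WT values of 6.74, 6.35 and 6.38 and KO values of 6.66, 6.60 and 6.01 on the scale of the deposited log2 reads. The KO values lay within and around the WT values, and the log2 fold change of -0.07 ± 0.15 (SE, n = 3 per genotype; limma adjusted p = 0.937) did not pass. A peak that the authors' annotation placed in Chd1, a chromatin remodeler gene, had an enrichment of 2.15. GENCODE M21 places Chd1 at chr17:15704967-15772610, and the 10 members given to it span chr17:16961701-17324100, so they are not in this gene by that annotation.

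Camk2b, which codes for a subunit of the calcium and calmodulin dependent kinase II, held a 4.80 kb member (chr11:6006151-6010950) with an enrichment of 1.97 and a log2 fold change of 0.22 ± 0.13 (SE, n = 3 per genotype; limma adjusted p = 0.602). AI506816 and CT030170.6, annotated loci without a known product, stood at 1.95 and 1.91. The KRAB-type zinc finger genes Zfp986, Zfp955a and Zfp984 reached 1.82, 1.74 and 1.73. The peak 371 bp downstream of Rnu1b2, a gene for the U1 small nuclear RNA of the spliceosome, had an enrichment of 1.82, and a peak in Prkdc, the catalytic subunit of DNA-dependent protein kinase, 1.72. Their log2 fold changes were -0.27, -0.37, -0.39, -0.21 and -0.30 in the order given, with limma adjusted p between 0.218 and 0.626. Zfp955a was lower without KO replicate 2 and Zfp984 without WT replicate 2 (limma adjusted p = 0.0179 and 0.0437). The other peaks of the 12, near AC147782.2 and in AC125543.3, both on chromosome 12, had enrichments of 1.76 and 1.72. The members at D10Wsu102e, Prkdc and AC147782.2 were each the most enriched of a group of members with shared sequence.

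The members were wide, and more often genic than other peaks. Their width had a median of 2400 bp compared with 1350 bp over all peaks, and 100 members (9.64%) exceeded 10 kb compared with 0.771% of all peaks. The 3 widest were chr16:90002701-90056700 (54000 bp, no gene within 5 kb), 3110053B16Rik on chromosome 12 (46350 bp) and Zfp943 on chromosome 17 (43500 bp). By the authors' annotation 441 members (42.5%) overlapped a gene, 71 lay within 5 kb upstream and 62 within 5 kb downstream, and 463 (44.6%) had no gene at that distance. Of all peaks 29.1% overlapped a gene. Both features rested on the input minimum: without it the same enrichment limit gave 5710 peaks with a median width of 600 bp and 24.6% in genes, both below the values for all peaks. For 17 of the 441 members the overlap was not found at that place in GENCODE M21, those given to Chd1 included.

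Exons were overlapped more often than their share over all peaks. Since a wide peak reaches an exon more easily, the central 300 bases were used, and 136 members (13.1%) had an exon there compared with 3.23% of all peaks. Without the input minimum the exon share at the same enrichment limit was 5.27%. A transcript start lay in the centre of 15 members (1.45%), compared with 0.529%. Of the genes overlapped, 21.3% were pseudogenes at members and 5.71% over all peaks, while protein-coding genes made up 55.8% and 77.2%. These shares were not tested, since width, sequence and read depth differ between members and the other peaks.

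**Figure D2:**
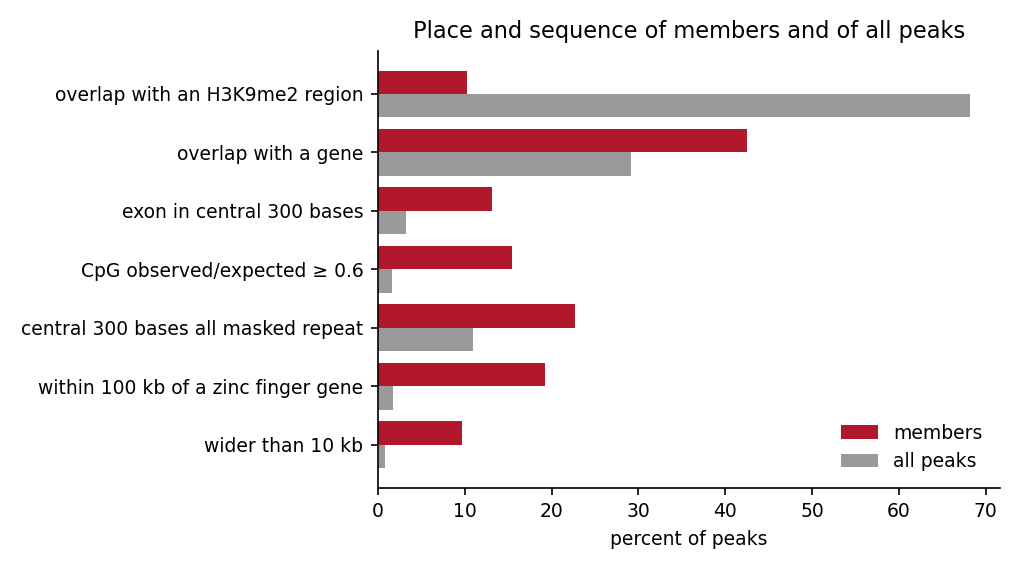
Percent of the 1037 members (red) and of all 212313 peaks (grey) with each feature of place or sequence. Overlap with an H3K9me2 region is far lower at members (10.2% against 68.2%), and the other features shown are more frequent at members.

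Zinc finger genes were the gene group most concentrated among the members. Of 987 peaks that overlapped or lay within 5 kb of a zinc finger gene, 68 at 56 genes were members, so the group made up 6.56% of members and 0.465% of all peaks. This share of the chosen peaks moved with the rule and was 2.00% without the input minimum, 2.61% at an enrichment limit of 0.5 and 3.02% when chosen on WT alone. The 68 members had a median width of 9150 bp, and 32 were wider than 10 kb. An exon was overlapped by 54 of the 68 and lay in the central 300 bases of 33 (3.23% of all peaks had one there). Counting those at the genes themselves, 199 members (19.19%) lay within 100 kb of such a gene, compared with 1.74% of all peaks. Next to Zfp986, the most enriched of these genes were Zfp955a, Zfp984, Zfp873 (1.65) and Zfp640 (1.63).

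The other lists held few members or differed less. Predicted genes with Gm names, many of them without a known product, were near 175 members (16.9%) and 7.27% of all peaks. Olfactory receptor genes, which sense odorants and stand in large silent clusters in other tissues, were near 4 members (0.386%) and 1.26% of all peaks. Vomeronasal receptor genes, which sense pheromones, were near 8 members (0.771%) and 0.589%. None of the 201 peaks near imprinted genes, of the 37 near clustered protocadherin genes or of the 12 near genes of the H3K9me3 and DNA methylation machinery was a member. Among germline genes, 2 of 70 peaks were members, in Tdrd9 (1.29) and Tdrd1 (1.00), Tudor domain genes of the piRNA pathway that silences transposons in the male germline. Of 39 peaks on a list of crypt and epithelial genes, 2 were members, in Tiam1 (1.11), an activator of the GTPase Rac, and Bglap3 (1.03), a gene of the osteocalcin family. No member lay within 5 kb of the markers Lgr5, Olfm4, Epcam, Vil1, Cdx1, Cdx2, Lyz1, Krt20 or Muc2, of which only Lgr5, Vil1 and Lyz1 had an H3K9me3 peak at all (3, 1 and 1), and a histone mark does not measure their expression.

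The members were clustered along the genome. When members less than 500 kb apart were joined, they formed 478 loci, of which 30 held 5 or more members and 42.1% of all members between them. The largest, chr12:17885401-21041250, held 79 members of 756 peaks in 3.16 Mb, where the genes carry clone-based names such as CT030170.6. A second, chrY:258151-2764650, held 61 members on the short arm of chromosome Y with the genes Ddx3y, Kdm5d, Uty, Usp9y and Zfy2. The third, chr4:145462201-147801300, held 36 members, all within 100 kb of a zinc finger gene, with Zfp986, Zfp984 and Zfp534. Denser still were chr17:16961701-17324100, with 10 members of 21 peaks, and chr5:109729501-110135250 at Zfp605 and Zfp932, with 12 of 41. At chr17:21815251-22857750, 12 members included peaks at the zinc finger genes Zfp758, Zfp820, Zfp942, Zfp943, Zfp945 and Zfp994.

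By chromosome, number 12 held 138 members (13.3% of members and 5.67% of peaks) and Y held 99 (9.55% and 0.501%). On Y, 9.30% of the 1064 peaks were members, and on X 2.06% of 2526. On the autosomes the share ran from 0.172% on chromosome 14 to 1.15% on chromosome 12. Leaving out Y, 7.46% of members and 4.77% of peaks started in the first 10 Mb of their chromosome, the end that holds the centromere in mouse autosomes.

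**Figure D3:**
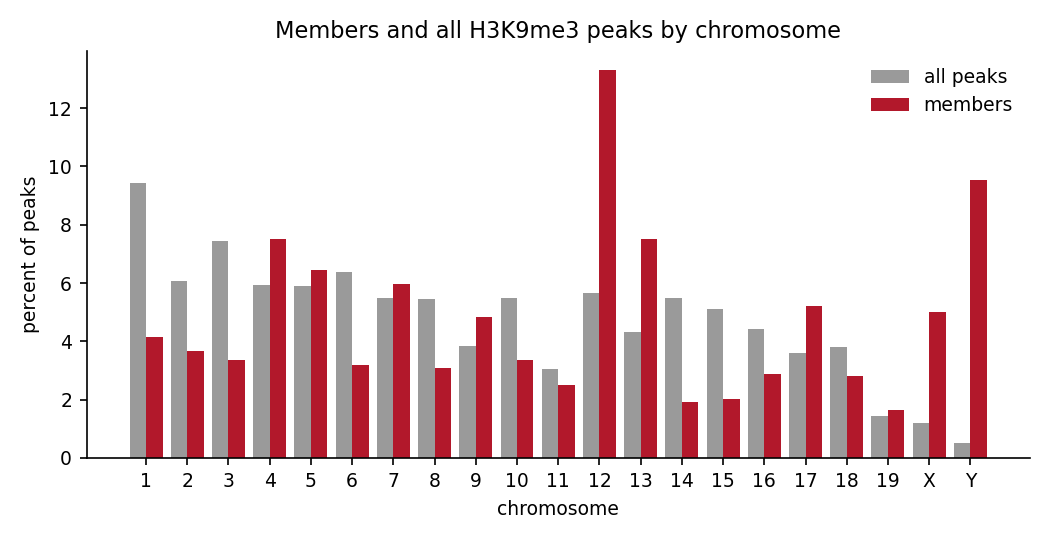
Percent of the members (red) and of all H3K9me3 peaks (grey) on each chromosome. Chromosomes 4, 5, 7, 9, 12, 13, 17, 19, X and Y hold a larger share of members than of peaks, with 13.3% of members on chromosome 12 and 9.55% on Y.

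The members seldom overlapped H3K9me2, the dimethylated form of the same residue, which the rule did not use. Of the 1037 members 106 (10.2%) shared at least 1 base with an H3K9me2 region, compared with 68.2% of all H3K9me3 peaks. Peaks up to 2 kb wide gave 9.81% against 64.7%, those of 2 to 5 kb 8.22% against 74.3%, and wider ones 13.5% against 82.6%. The difference thus held in each width class. Over all peaks, members or not, the overlap also varied with place. In the largest loci, on chromosomes 12, Y and 4, it was 77 of 756, 0 of 546 and 46 of 244 peaks. At chr13:61102951-62782800 it was 212 of 359. How far place goes with the low overlap of members was not tested. In the 106 regions concerned, H3K9me2 over the input of its genotype had a median log2 value of 0.05, relative to all reads in regions, and 0.00617 over all 47065 regions. Over single libraries the median at members lay between 0.03 and 0.13.

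H3K9me2 at the members did not pass the test between genotypes. None of the 106 regions was lower or higher in KO by the edgeR quasi-likelihood test, and 0 by DESeq2, against 0.00212% lower and 0% higher over all regions. At an unadjusted p under 0.05, 1 was lower and 5 were higher, against 1.52% and 1.6% over all regions. Their median log2 fold change was 0.03, and -0.00153 over all regions.

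The rule used the same 6 ChIP libraries that are compared here, so the counts over members that follow describe the chosen peaks and support no statement on H3K9me3 as a whole. In the test across all peaks, 136 members were lower in KO (adjusted p under 0.05, limma), which is 13.1% of members against 2.46% of all peaks. None was higher, against 0.252% of all peaks. At an unadjusted p under 0.05 limma had 16 members higher and 286 lower, against 8639 and 14340 of all peaks. The edgeR and DESeq2 tests on recovered read counts called 1 and 0 members higher, against 568 and 128 of all peaks. The count moved with the limits of the rule, with 6 of 108 lower at an enrichment limit of 1.5 and 163 of 5710 without the input minimum, and 114 of 607 with at least 20 reads in both inputs. The single edgeR call was in Gm996, with a limma log2 fold change of 0.45 ± 0.14 (SE, n = 3 per genotype; limma adjusted p = 0.0612). Members held more reads than most peaks, and their median SE was 0.15 compared with 0.22. Among peaks with at least 10 reads in both inputs 2.75% were lower, and among peaks with a mean level at or above the median of members 5.44% were, compared with 105 of the 519 members at that level (20.2%). All 3 KO values lay below all 3 WT values in 278 members (26.8%, against 8.21% of all peaks), and above them in 13 (1.25%, against 7.3%).

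The difference was small at most members. Their median log2 fold change was -0.14, against 0.03 over all peaks, and 75.0% of members compared with 45.3% of all peaks had a value below 0. Per library, the median of the members' deposited values was 6.52, 6.26 and 6.39 in WT and 6.13, 6.23 and 6.10 in KO. All 3 KO medians lay below all 3 WT medians, the nearest being KO replicate 2 and WT replicate 2. The same medians over all peaks were between 5.02 and 5.05, since the deposited distributions had been matched. Over the input of its own genotype, and relative to all peaks, the member median was between 1.27 and 1.435 in WT and between 0.97 and 1.09 in KO. A lower contrast of ChIP over input in the KO libraries and less H3K9me3 at these peaks cannot be told apart from these values, nor can fewer cells with the mark and less of it per cell.

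The calls lay mainly at members that passed the rule through WT. An enrichment of at least 1 in both genotypes was found at 489 members, of which 22 were lower (4.499%), with a median log2 fold change of -0.10. In WT but not KO the limit was reached by 455 members, of which 114 were lower, and in KO but not WT by 92, of which none was. The calls at members that reached the limit in WT alone come from peaks chosen partly by the genotype in which they were high. The direction also depended on which genotype chose the peaks. Peaks chosen by the same limits on KO ChIP over KO input had a median log2 fold change of 0.02, with 23 lower and 10 higher, and those chosen on WT ChIP over WT input had a median of -0.36, with 1013 lower and 1 higher. These 2 choices gave unequal numbers of peaks, listed with the alternatives below, and over all peaks 2.46% were lower and 0.252% higher. The inputs differed as well, with a median KO minus WT difference of 0.03 log2 reads at members, against -0.07 over all peaks, and of 0.10 at lower members. The enrichment over the input of each genotype includes this difference, and the test of ChIP values does not. The calls also rested on limma's mean-variance trend: without it no member was lower or higher, and 87 peaks were lower in all. Of the 136 lower members, 134 were also lower by edgeR on recovered reads and 74 by DESeq2. Leaving out WT replicate 1 or KO replicate 1 gave 7 or 8 members higher in KO, where the 6 libraries gave none, and 535 or 425 of all peaks. KO replicate 1 was the shallowest library, with a median of 49 recovered reads per member, and WT replicate 1 the deepest at members, with 102.

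**Figure D4:**
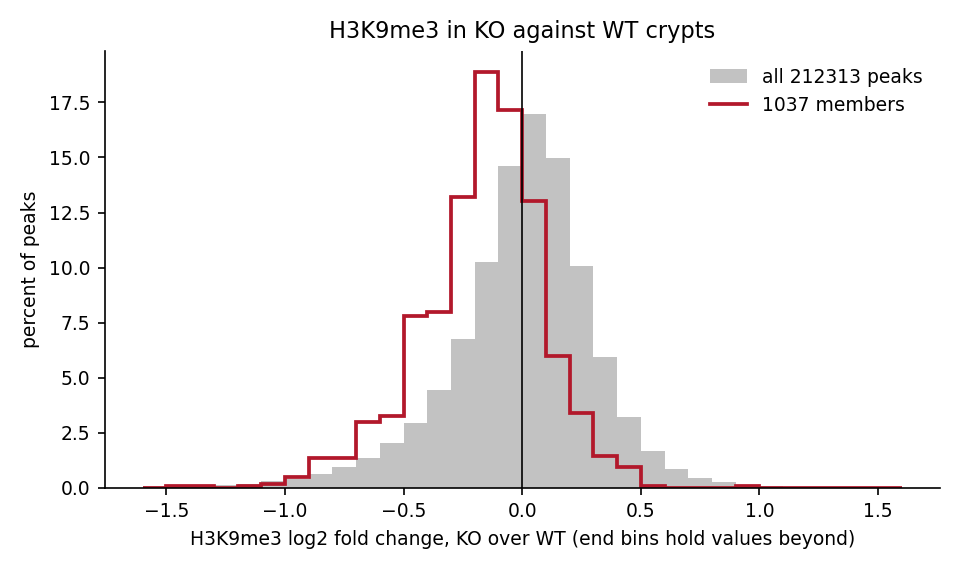
H3K9me3 log2 fold change of KO over WT in steps of 0.1, as percent of the 1037 members (red line) and of all 212313 peaks (grey). The members are shifted to lower values, with a median of -0.14 against 0.03.

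Among the lower members, the log2 fold change ran from -1.5 to -0.20 with a median of -0.59, compared with -0.82 over all lower peaks. A fall of at least 2-fold was seen at 5 of them (3.68%, against 27.7% of all lower peaks), near Pmf1, in BC035044 and at 3 places without a gene on chromosomes 3, 8 and 15. The 10 lower members with the smallest p all passed the rule through WT, with enrichments of 1.37 to 1.94 in WT and 0.14 to 0.99 in KO. The smallest p belonged to chr3:88389451-88391850, which the authors' annotation placed 2293 bp upstream of Pmf1. Pmf1 is a gene of the kinetochore complex that attaches chromosomes to the spindle, and which side of it the peak lies on was not checked. This peak had WT values of 7.71, 7.57 and 7.74 and KO values of 5.76, 6.52 and 6.25. All KO libraries were below all WT libraries, with a mean ± SD of 7.67 ± 0.09 in WT and 6.18 ± 0.39 in KO (n = 3 each) and a log2 fold change of -1.5 ± 0.13 (SE, n = 3 per genotype; limma adjusted p = 2.47e-11), or 0.355 times the WT level. Zcchc3, which codes for a CCHC-type zinc finger protein of nucleic acid binding, held a 6 kb member at chr2:152410951-152416950. There the library values were 8.93, 8.74 and 8.59 in WT and 7.65, 7.99 and 7.75 in KO, again without overlap, and they gave a log2 fold change of -0.96 ± 0.09 (SE, n = 3 per genotype; limma adjusted p = 3.4e-10).

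Zfp111, a KRAB zinc finger gene on chromosome 7, carried a 12.9 kb member (chr7:24191101-24204000). It gave WT values of 9.91, 9.73 and 9.87 and KO values of 8.97, 9.34 and 9.24, and a log2 fold change of -0.65 ± 0.08 (SE, n = 3 per genotype; limma adjusted p = 2.27e-08). The spread within a genotype was 0.10 in WT and 0.19 in KO (SD). This peak was chosen for its small p and passed the rule through WT, with enrichments of 1.69 in WT and 0.80 in KO. A member 1261 bp downstream of Gm22915 on chromosome 5 had a log2 fold change of -0.85 ± 0.11 (SE, n = 3 per genotype; limma adjusted p = 2.34e-07).

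The other 6 of the 10 with the smallest p had no gene within 5 kb. At chr15:37076701-37080750 the mean ± SD of 7.22 ± 0.19 in WT and 5.91 ± 0.20 in KO (n = 3 each) gave a log2 fold change of -1.31 ± 0.14 (SE, n = 3 per genotype; limma adjusted p = 1.73e-09). The member chr11:120327901-120335250, 7.35 kb wide, had a log2 fold change of -0.79 ± 0.08 (SE, n = 3 per genotype; limma adjusted p = 3.86e-09). At chr16:20951401-20955450 it was -0.94 ± 0.10 (limma adjusted p = 8.86e-09), and this peak belonged to a locus in which all members were lower, described below. The remaining 3, on chromosomes 15, 6 and 8, had log2 fold changes of -0.88, -0.86 and -0.68. In each of these peaks the 3 KO values were below the 3 WT values, which the choice on a small p favoured.

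**Figure D5:**
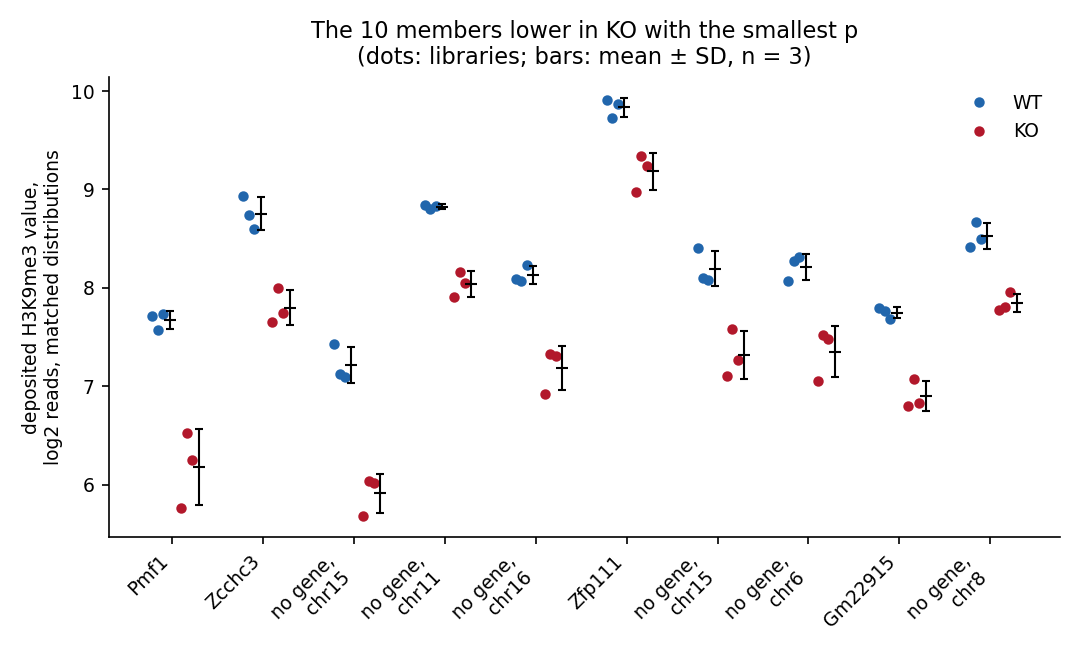
Deposited H3K9me3 value (log2 reads with matched distributions) in each WT (blue) and KO (red) library for the 10 members lower in KO with the smallest p, with black bars for the mean ± SD of 3 libraries. WT and KO libraries do not overlap in any of the 10, from Pmf1 (mean 7.67 against 6.18) to the unnamed chromosome 8 peak (8.53 against 7.84). The 10 were chosen for a small p and passed the rule through WT, so this separation is no further support.

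The members at zinc finger genes had a median fold change close to that of all members. Of the 68, 11 were lower (16.2%, against 6.59% of all peaks at these genes) and none was higher, 53 had a log2 fold change below 0, and their median was -0.13, beside -0.14 for all members. The 11 lay at Zfp971, Zfp68, Zfp110, Zfp180, Zfp111, Zfp850, Zfp709 (in 2 peaks), Zfp810, Zfp160 and Zfp942, of which Zfp110, Zfp180, Zfp111 and Zfp850 are on chromosome 7. At Zfp180 the log2 fold change was -0.45 ± 0.07 and at Zfp110 -0.38 ± 0.06 (SE; limma adjusted p = 6.99e-06 and 3.37e-05). Zfp942, 42.5 kb wide, had -0.23 ± 0.06 (limma adjusted p = 0.01). Of the 11, 6 passed the rule through WT, Zfp180 and Zfp110 among them, and 5 reached the limit in both genotypes, at Zfp68, Zfp850, Zfp709, Zfp810 and Zfp942. Zfp873, by contrast, had WT values of 10.76, 10.84 and 10.84 and KO values of 10.67, 10.71 and 10.76, and its difference of -0.10 did not pass (limma adjusted p = 0.556). Of the 199 members within 100 kb of a zinc finger gene 22 were lower (11.1%), against 7.07% of all peaks at that distance.

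On the other lists few members passed. At predicted Gm genes 10 of 175 were lower (5.71%, against 3.72% of all peaks at such genes), with a median of -0.10. At Tdrd9 the WT values of 8.26, 7.96 and 8.11 and KO values of 7.69, 7.70 and 7.67 gave a log2 fold change of -0.42 ± 0.09 (SE, n = 3 per genotype; limma adjusted p = 0.00421), which did not pass without WT replicate 1 (limma adjusted p = 0.0822). Its enrichment was 1.67 in WT and 0.89 in KO, so it too passed the rule through WT. At Tdrd1 the log2 fold change was 0.12 ± 0.16 (limma adjusted p = 0.878). Neither the member in Tiam1 (0.05 ± 0.07) nor that in Bglap3 (-0.22 ± 0.10) passed, while of all 39 peaks on the crypt and epithelial list 12 were higher and 3 lower. The paper names Tiam1 among genes that gain H3K9me3 in their body in KO, and the value here is that of the member peak, not of the gene. The members at olfactory and vomeronasal receptor genes did not pass either, and over all peaks at these genes only 1.09% and 0.8% were lower.

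At a few loci most members were lower, and these were picked out after their values had been seen. At chr16:20937001-21106200 all 6 members were lower, with log2 fold changes from -0.94 to -0.49 and a median of -0.71, as were 17 of the 27 peaks in this span. None of the 6 members had a gene within 5 kb, and none of the peaks in the span overlapped an H3K9me2 region. At chr3:93699001-94218450, 5 of 7 members and 10 of 21 peaks were lower, among them the most enriched member of all. That peak had WT values of 7.40, 7.26 and 7.36 and KO values of 6.59, 6.90 and 6.78, and a log2 fold change of -0.58 ± 0.12 (SE, n = 3 per genotype; limma adjusted p = 0.00082). A neighbour in the locus, chr3:94109401-94111650, had a log2 fold change of -1.12 ± 0.17 (limma adjusted p = 8.08e-06). At both loci every lower member but the most enriched one, which reached 3.13 in WT and 1.32 in KO, stayed under the limit in KO and passed the rule through WT. Further along chromosome 3, the members downstream of the U1 RNA genes Rnu1b1 and Rnu1b2 had -0.59 ± 0.12 and -0.21 ± 0.12 (limma adjusted p = 0.00119 and 0.566), and the first of these also passed the rule through WT.

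The largest loci held shares of lower members nearer to the 2.46% of all peaks. At the chromosome 12 locus 0 of 79 were lower with a median of -0.10, at that of chromosome 4 1 of 36 with -0.02, and at that of chromosome Y 2 of 61 with -0.08. Over all peaks in these spans 0 of 756, 1 of 244 and 2 of 546 were lower. In all, the 30 loci with 5 or more members held 437 members and 24 lower ones, and the rest held 112 lower ones. On chromosome Y, Ddx3y, which codes for an RNA helicase, had WT values of 7.73, 7.71 and 7.80 and KO values of 6.89, 7.0 and 7.0. Its KO values lay apart from its WT values, with a log2 fold change of -0.78 ± 0.10 (SE, n = 3 per genotype; limma adjusted p = 6.67e-07), and its enrichment was 1.606 in WT and 0.65 in KO, so that it passed the rule through WT. The neighbouring Kdm5d, a demethylase gene for histone H3 lysine 4, had -0.22 ± 0.09 (limma adjusted p = 0.322).

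Groups of members with shared sequence were small, and their fold changes are given beside those of all peaks that resembled the same sequence. Of the 16 members like the second printed sequence 5 were lower, with a median log2 fold change of -0.38, and of the 18 like the first 1, with -0.13. Of the 10 like the Zfp932 sequence none was lower, with a median of -0.13. Over all peaks that resembled the second sequence, members or not, 13 of 113 were lower (11.5%) with a median of -0.28. For the first the values were 31 of 394 (7.87%) and -0.20, and for the Zfp932 sequence 0 of 24 and -0.11. The 898 members outside the 11 groups of 8 or more had 123 lower and a median of -0.14. Differences between these groups were not tested.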

How the data were processed

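H3K9me3 and H3K9me2 ChIP-seq from small intestinal crypts were used, with 3 WT and 3 KO libraries and 1 input per genotype for each mark, grouped by sample title. Per the study's methods and processing notes, reads were trimmed with Trim Galore 0.4.4, mapped to GRCm38 with Bowtie2 2.3.2 and filtered on mapping quality, and MACS peaks were called once per mark on pooled ChIP libraries. As deposited, H3K9me3 values were log2 counts of reads in each peak, which the authors had imported into SeqMonk and given matched distributions over the 6 ChIP libraries, a step that removes depth and any overall shift, while inputs were plain log2 counts. For H3K9me2 the deposited signal was a mean of reads over the peaks merged into a region, multiplied here by the number of peaks to give whole reads (largest deviation 0.00114). Shorter deposited tables hold counts or log2 values and FDR values of an edgeR comparison by the authors. The counts served only to check the region sums, and the rest, with 8 columns of standard deviations, was not used.

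Genotypes were compared for H3K9me3 with limma 3.58.1 (trend, two-sided, Benjamini-Hochberg over all peaks), the design chosen for log2 values. H3K9me2 was tested with edgeR 4.0.16 (quasi-likelihood, TMM) over all regions. The study calls the replicates biological but does not say how animals were divided among them, and p-values measure the spread between libraries. The functions were tested on simulated data first. Read counts recovered from ranks served for depth and for edgeR and DESeq2 1.42.0 alternatives; they summed to 7071565 to 11831308 reads in peaks per library, with a median of 49 to 102 reads per member, and those of 76.1% to 82.7% of members were exact. Library pairs differed by more than sampling noise (chi-square per degree of freedom at least 1.15). Replicate numbers did not pair the libraries.

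Genes within 5 kb came from the authors' annotation, exons from GENCODE M21, and sequence from GRCm38.p6 with R 4.3.3, Python 3.11.15 and pysam 0.24.0. Members and gene lists were chosen with earlier results of these data known. Named are the 12 most enriched members with a gene symbol other than Gm or Rik names, the 10 lower members with the smallest p, up to 5 members per gene list, the 3 widest, and 3 on each side of the limit. Other named members were chosen after their values were seen. Alternatives were other tests, filters, limits and inputs, leaving out each library, and a replicate block.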

Additional observations from a re-analysis of the deposited data

How the results depend on the processing

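The count of lower members was 0 in limma without the trend, which also left 0 of the 11 named lower peaks. It was 74 by DESeq2 and 152 by edgeR (with 1 higher). Over all peaks 87, 2261 and 5877 were lower, in the order given. At an adjusted p under 0.01 the count of lower members was 92, for which no count over all peaks is given here. With at least a 2-fold change it was 5, against 1450 of all peaks. With each library left out it ranged from 92 to 132 (over all peaks from 3242 to 4863), higher members from 0 to 8, and the median log2 fold change from -0.18 to -0.11. The correlations of same-numbered libraries were -0.01, 0.01 and -0.01 for H3K9me3 and 0.22, 0.00145 and 0.11 for H3K9me2, and with the replicate block the H3K9me2 median was 0.0264 and 134 members were lower, 133 of them among the 136. An enrichment limit of 0.5 gave 7203 peaks, 1073 lower, 18 higher, a median log2 fold change of -0.14, 33.2% in genes, a median width of 1800 bp and 2.61% near zinc finger genes. A limit of 1.5 gave 108 peaks, 6 lower, 0 higher, a median log2 fold change of -0.13, 47.2% in genes, a median width of 2250 bp and 7.41% near zinc finger genes. Inputs of at least 20 reads gave 607 peaks, 114 lower, 0 higher, a median log2 fold change of -0.15, 51.9% in genes, a median width of 4350 bp and 10.2% near zinc finger genes. No input minimum gave 5710 peaks, 163 lower, 0 higher, a median log2 fold change of -0.08, 24.6% in genes, a median width of 600 bp and 2.00% near zinc finger genes. Choosing on WT alone gave 3216 peaks, 1013 lower, 1 higher, a median log2 fold change of -0.36, 38.1% in genes, a median width of 1950 bp and 3.02% near zinc finger genes. Choosing on KO alone gave 1063 peaks, 23 lower, 10 higher, a median log2 fold change of 0.016, 39.1% in genes, a median width of 1650 bp and 5.55% near zinc finger genes. With members within 10 kb merged, 43.7% overlapped a gene and 6.99% lay near zinc finger genes. No H3K9me2 region at a member passed under any alternative run, and their median log2 fold change ranged from 0.00421 to 0.0393 with a library left out and was 0.00929 where a region covered at least 50% of the member. The causes of these differences were not tested. Input depth limits the enrichment of single members, and changes under 2-fold at shallow peaks can be missed.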

Other observations

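The 4673 peaks that passed the enrichment limit with fewer than 10 reads in an input differed from the members in several features. Their median width was 450 bp, and their inputs held a median of 4 reads in WT and 5 in KO. Chromosome X held 886 of them and chromosome Y 401. A zinc finger gene lay within 5 kb of 46 (0.984%), an exon in the central 300 bases of 3.53%, and an H3K9me2 region over 18.1%. The median soft-masked share of the central 300 bases was 94.7%. In KO 27 were lower (0.578%) and 0 higher by limma, with a median log2 fold change of -0.06.

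The Gm26917 member at chr17:39839701-39849000 had the highest level of all members, with WT values of 14.77, 14.40 and 14.77 and KO values of 14.40, 14.77 and 14.77 and an enrichment of 1.25. Its values are tied between libraries because the deposited distributions were matched and this peak took the top ranks.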
